A study of Mus musculus with 6 samples.

Results

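RNA of primary dermal fibroblasts from mice was compared between cells labelled as YAP and TAZ knockouts and control cells, in 4 of the 6 libraries of the series and over all 13706 genes of its expression table. The members are the 2 control and the 2 YAP/TAZ knockout (KO) libraries, chosen by their labels and not by any measured value. Control cells had the genotype Yap1 fl/fl; Wwtr1 fl/fl, with no Cre recombinase listed. KO cells had the same floxed alleles of Yap1 (the gene of YAP) and Wwtr1 (the gene of TAZ) together with R26-CAG-CreER, a Cre that 4-hydroxytamoxifen activates in every cell type that uses this broadly active promoter. Both groups grew in 20% serum and received 1 µM 4-hydroxytamoxifen for 72 hr. A further group of 2 libraries, KO cells treated in addition with 1 µM H-151, an inhibitor of the DNA-sensing adaptor STING, entered the estimate of the spread and is given only as levels. A Cre is listed for KO cells alone, so an effect of Cre and the loss of YAP and TAZ cannot be told apart. Whether replicate libraries derive from different cultures or mice is not stated, and the p-values therefore cover the spread among these libraries alone, which may be technical.

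YAP and TAZ are coactivators without a DNA-binding domain of their own. When the kinases of the Hippo pathway are inactive they enter the nucleus and bind the TEAD transcription factors, which recognise the sequence GGAATG in enhancers and promoters. In fibroblasts they are known for responding to cell spreading, stiff matrix and actin tension, and for driving genes of matrix, adhesion and growth.

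Libraries were made with QuantSeq, a method that reads the 3′ ends of messenger RNA, and levels are given as scaled CPM, reads relative to a corrected library size. Reads in the 13706 genes numbered 12444986 to 13505502 per library, and 1 read was worth 0.0712 to 0.0871 scaled CPM. Spearman correlations across genes were 0.995 within control, 0.996 within KO and 0.952 to 0.953 between the groups. Changes are differences of log2(scaled CPM + 1), KO minus control, ± SE, with limma p-values adjusted by the Benjamini-Hochberg method over the 13648 genes tested. "Rose" and "fell" mean an adjusted p under 0.05. Means are ± SD of n = 2 libraries, and an exact permutation test of 2 against 2 libraries could not give a p below 0.333. In the bulk RNA measured, fewer cells that express a gene and less RNA of it per cell cannot be told apart. The control and KO libraries did not overlap for 66.9% of all genes tested, whether or not these passed the test. This share is the background for each statement below that a gene was higher or lower in both KO libraries. Most genes named below passed the test, so for them the absence of overlap describes the levels and is no separate support. A dagger (†) marks a gene chosen for description after its values were seen.

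Of all genes tested, 2483 (18.2%) rose and 1938 (14.2%) fell, and 779 rose (5.71%) and 207 fell (1.52%) by at least 2-fold. All 99 tested members of a list of interferon-stimulated genes rose (100%), with a median log2 change of 3.52. Outside that list 2384 of 13549 genes rose and 1938 fell. With 99 tested members the list could hold only a small part of the changed genes, so these counts do not measure the part of interferon. The list need not hold every gene that interferon induces. The split depends on scaling: 56.2% of the changed genes rose with the deposited scaling, 45.5% with median scaling, 39.1% with quantile normalization and 29.9% with total-count scaling, while the median log2 change of all genes moved from -0.01 to -0.07, -0.10 and -0.16. The shares for all genes, 18.2% that rose and 14.2% that fell, are therefore the background for every list count below. A list with shares near these did not stand out from all genes. Counts under other scalings are printed where they change the picture. With any 1 of the 4 libraries left out, 1782 to 2032 genes rose and 1165 to 1252 fell.

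**Figure D1:**
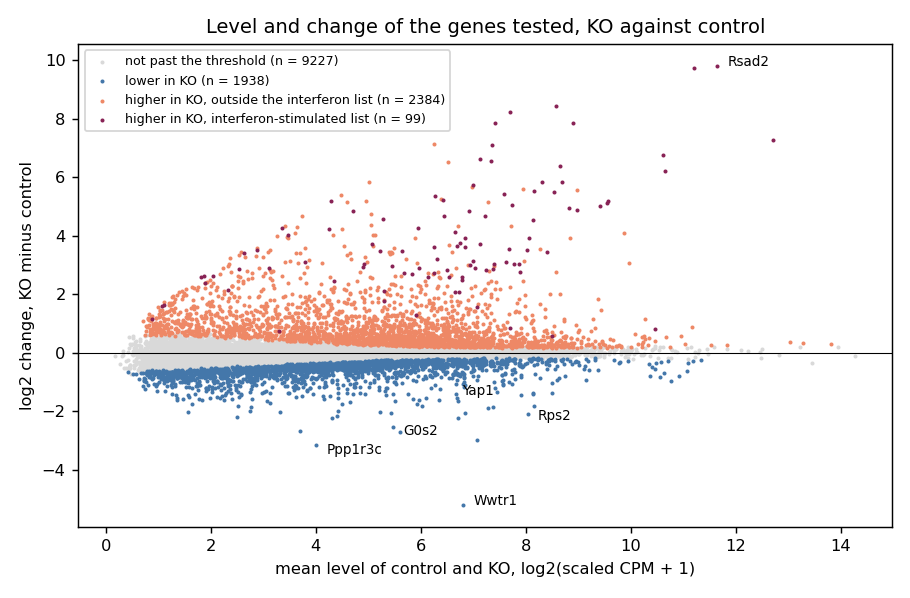
Each point is 1 of the 13648 genes tested, with its mean level in control and KO as log2(scaled CPM + 1) on the x axis and its log2 change (KO minus control) on the y axis. The 99 interferon-stimulated genes reach the highest changes, Wwtr1 lies lowest at -5.20, and the 2384 other genes that rose and the 1938 that fell span the whole range of levels.

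**Figure D2:**
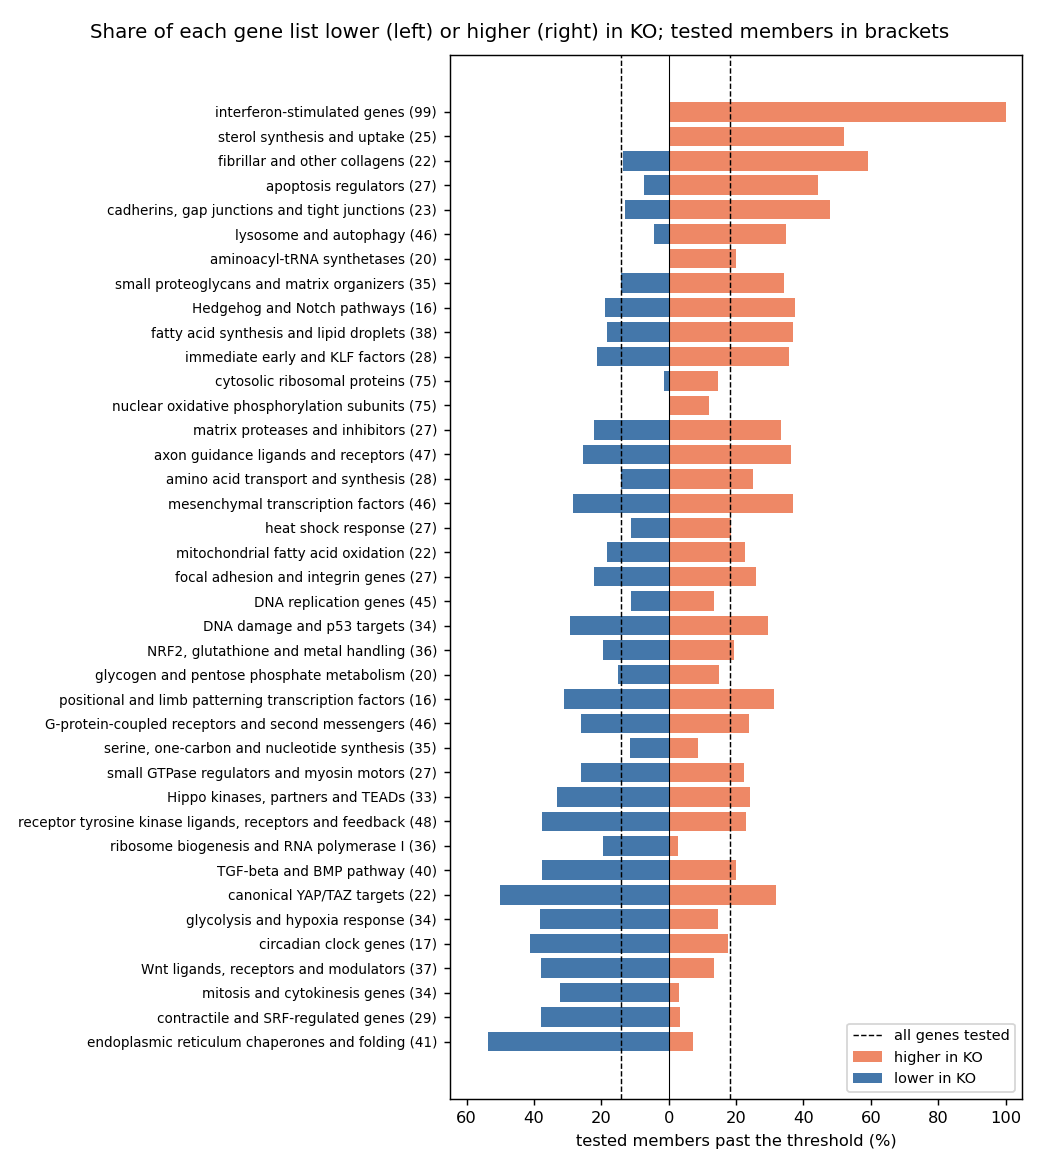
Bars give the share of tested members of 39 gene lists that rose in KO (right) or fell (left), in percent, with dashed lines at the shares for all genes tested (18.2% and 14.2%) and the number of tested members in brackets. After the interferon-stimulated list, sterol synthesis, collagens, apoptosis regulators and cell junctions lean most to the right, and chaperones of the endoplasmic reticulum, contractile genes, mitosis genes and Wnt genes most to the left.

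Markers of cell types were examined next. The summed level of 10 fibroblast markers was 34224 and 34746 in control and 38398 and 40190 in KO, the highest of all marker lists by far. The 15 macrophage markers in the table summed to 1342 to 1561 in control and 1670 to 1675 in KO, with Cx3cr1 not in the table. The 9 markers of melanocytes and Schwann cells in the table summed to 103 to 114 in control and 336 to 376 in KO, and the defining pigment cell genes Tyr and Tyrp1 were not in the table. The 8 endothelial markers in the table summed to 19.5 to 20.9 in control and 13.8 to 14.6 in KO, with Tie1 and Cldn5 not in the table. Thus the joint sum of nerve sheath and pigment cell markers was higher in both KO libraries and the endothelial sum lower. The joint sum does not stand for each of its markers. Its gene with the highest mean was Ngfr, at 51.6 and 50.01 in the control and 188 and 210.02 in the KO libraries. The pigment cell gene Dct had the largest fall of that list. The part of these cell types in the results below was not tested.

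The targeted genes were both lower in both KO libraries. Wwtr1 (chromosome 3, 57455649 to 57575910, GRCm38) stood at 213 and 218 in the control and 4.79 and 5.03 in the KO libraries, a log2 change of -5.20 ± 0.13 (adjusted p = 1.55e-14). Yap1 (chromosome 9, 7931999 to 8004596) stood at 122 and 128 in the control and 66.4 and 68.3 in the KO libraries, a log2 change of -0.88 ± 0.08 (adjusted p = 1.34e-07). Which exons are floxed is not stated. A 3′ tag checks nothing where it lies outside the excised exons, and the Yap1 reads that remained are no measure of intact transcript.

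Partners of YAP and TAZ changed in both directions. Of 33 tested Hippo kinases, partners and TEADs 8 rose (24.2%) and 11 fell (33.3%), or 5 and 17 with total-count scaling. The list holds the floxed genes Yap1 and Wwtr1 themselves, and their falls are among the 11. Amotl2, an angiomotin that holds YAP in the cytoplasm and is itself a YAP target, fell from 251 ± 2.93 to 98.2 ± 0.961, a log2 change of -1.35 ± 0.07 (adjusted p = 6.05e-11). Vgll3, a TEAD cofactor that competes with YAP, stood at 275 and 297 in the control and 139.7 and 133 in the KO libraries, -1.06 ± 0.07 (adjusted p = 2.05e-09). Its relative Vgll4†, a repressor of TEAD, fell from 56.03 ± 2.09 to 23.8 ± 1.82, -1.21 ± 0.09 (adjusted p = 2.41e-08). The upstream kinase gene Taok3 rose from 175 ± 5.43 to 376 ± 5.82, 1.10 ± 0.06 (adjusted p = 8.53e-10). These 3 partner genes were lower in both KO libraries than in either control library, whereas the kinase gene was higher in both.

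Direct targets did not share a direction: of 22 canonical YAP/TAZ targets 11 fell (50%) and 7 rose (31.8%), with a median log2 change of -0.34. Ankrd1, a nuclear ankyrin-repeat protein and one of the classical targets, stood at 6.20 and 5.26 in the control and 1.31 and 1.28 in the KO libraries, a log2 change of -1.55 ± 0.20 (adjusted p = 1.57e-05). Ccn1, a secreted matricellular protein, stood at 303 and 310.3 in the control and 192 and 154 in the KO libraries, -0.83 ± 0.09 (adjusted p = 1.52e-06). Ajuba, a LIM protein that binds the kinase LATS, fell from 23.6 ± 0.864 to 9.81 ± 0.578, -1.19 ± 0.13 (adjusted p = 1.47e-06). Ccn2, the closest relative of Ccn1, stood at 1109.9 and 1135 in the control and 1077 and 876 in the KO libraries and did not pass the test, with -0.21 ± 0.14 (adjusted p = 0.265). Among the targets that rose was Axl, a receptor tyrosine kinase, at 265 and 277 in the control and 449.7 and 447 in the KO libraries, 0.73 ± 0.06 (adjusted p = 1.70e-07). Igfbp3, which binds insulin-like growth factors, rose from 15.5 ± 0.274 to 38.8 ± 3.96, 1.27 ± 0.15 (adjusted p = 3.67e-06). The name of the list therefore does not give a direction here.

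Promoter sequences (RefSeq, GRCm38.p6) are shown for 3 targets that fell, to place the TEAD core GGAATG, or CATTCC on the other strand, in the 250 bases before the start site. The core, in capitals, was found in 7 of the 16 target promoters available (43.8%): those of Ankrd1, Amotl2, Ccn1 and Ajuba, which fell, and of Axl, Crim1† (0.62 ± 0.08) and Ptpn14† (0.58 ± 0.09), which rose. It was found in 10.5% of all 10267 promoters of tested genes, in 10.2% of those of genes that rose and in 11.9% of those of genes that fell. The promoters are at chr19:36119845-36120094, minus strand (Ankrd1), chr9:102717554-102717803, plus strand (Amotl2) and chr3:145649986-145650235, minus strand (Ccn1), and a match describes the letters only.
Ankrd1: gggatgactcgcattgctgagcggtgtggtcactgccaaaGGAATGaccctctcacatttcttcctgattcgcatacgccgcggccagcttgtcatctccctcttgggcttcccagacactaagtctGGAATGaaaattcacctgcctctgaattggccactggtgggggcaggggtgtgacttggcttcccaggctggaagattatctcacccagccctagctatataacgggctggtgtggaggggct
Amotl2: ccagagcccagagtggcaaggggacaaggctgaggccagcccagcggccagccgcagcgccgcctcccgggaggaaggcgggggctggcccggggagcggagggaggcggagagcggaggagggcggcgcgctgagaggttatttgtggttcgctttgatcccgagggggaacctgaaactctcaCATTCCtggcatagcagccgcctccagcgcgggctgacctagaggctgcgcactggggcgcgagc
Ccn1: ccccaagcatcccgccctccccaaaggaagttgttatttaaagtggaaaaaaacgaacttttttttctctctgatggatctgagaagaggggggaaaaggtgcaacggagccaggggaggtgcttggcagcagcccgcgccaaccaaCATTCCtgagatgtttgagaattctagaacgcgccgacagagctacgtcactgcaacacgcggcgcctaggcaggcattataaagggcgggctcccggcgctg

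After Wwtr1, the largest falls among genes whose groups did not overlap and whose higher group had a mean of at least 5 scaled CPM included the following. Ppp1r3c (chromosome 19, 36731731 to 36736653), which targets protein phosphatase 1 to glycogen, stood at 30.7 and 25.2 in the control and 1.83 and 2.64 in the KO libraries, a log2 change of -3.17 ± 0.16 (adjusted p = 9.05e-11). Fam43a (chromosome 16, 30599723 to 30602797), a gene of little known function, stood at 77.8 and 90.01 in the control and 10.8 and 12.9 in the KO libraries, -2.72 ± 0.10 (adjusted p = 2.68e-12). G0s2 (chromosome 1, 193272161 to 193273217), an inhibitor of the lipase that empties lipid droplets, stood at 78.97 and 70.05 in the control and 12.1 and 11.7 in the KO libraries, -2.55 ± 0.09 (adjusted p = 1.40e-12). The absence of overlap was part of the choice of these genes, and only the size of their falls is described. Adm, the vasodilator peptide adrenomedullin, fell from 172 ± 19.4 to 35.6 ± 0.190, -2.24 ± 0.09 (adjusted p = 4.81e-12). Npr3, the receptor that clears natriuretic peptides, fell from 31.8 ± 0.725 to 5.99 ± 0.885, -2.24 ± 0.14 (adjusted p = 2.70e-09). Edn1, the vasoconstrictor endothelin, stood at 12.2 and 17.9 in the control and 3.05 and 2.73 in the KO libraries, -2.02 ± 0.19 (adjusted p = 3.17e-07). In the KO + H-151 libraries Ppp1r3c stood at 22.9 and 21.6, Fam43a at 99.2 and 89.7, Npr3 at 9.47 and 8.44 and Edn1 at 6.08 and 5.25. The level in KO + H-151 was thus near that of control for some of these genes and nearer to that of KO for others, a difference that was not tested.

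**Figure D3:**
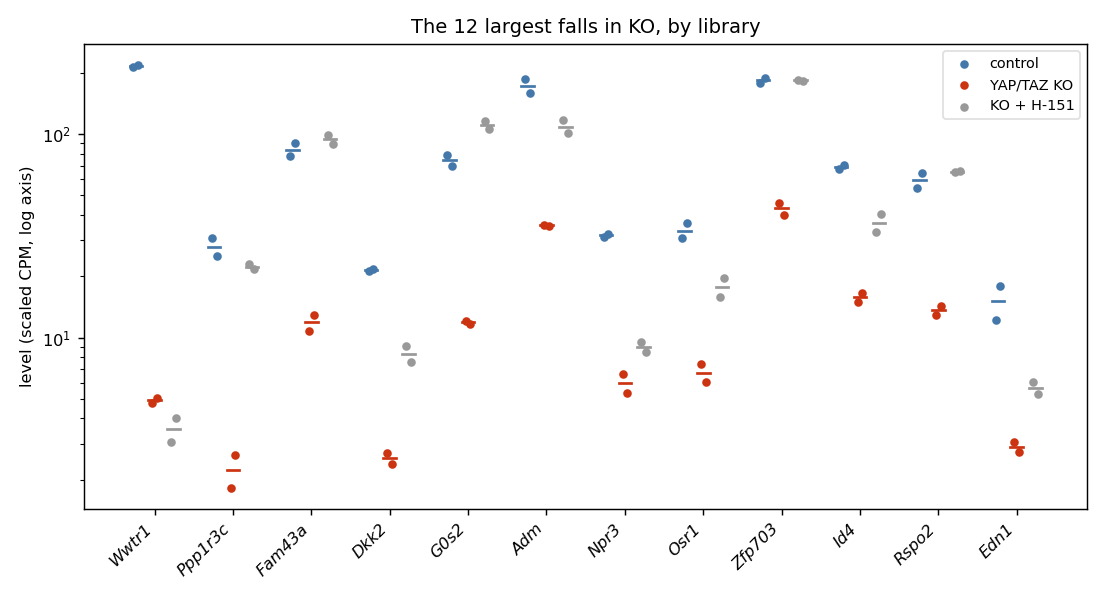
Levels (scaled CPM, log axis) of the 12 genes with the largest falls in each of the 6 libraries, with bars at the group means. The genes were chosen so that both KO libraries (red) lie below both control libraries (blue), and the distance is widest for Wwtr1 (log2 change -5.20); the KO + H-151 libraries (grey) are shown for their levels only.

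Rises were next ranked outside the interferon list, leaving out also symbols that begin like those of interferon-induced, antigen presentation and chemokine genes, unnamed gene models and genes whose groups overlapped. Of the 12 largest rises that remained, 5 are described. The choice went by list and symbol, so genes that interferon induces may be among them. Their link to interferon was not tested. Acod1, the macrophage enzyme that makes itaconate, had 1 read in control and 983 in KO, a ratio of 1182 (exact 95% counting interval 212 to 46720). Tnfsf10, the death ligand TRAIL, had 0 reads in control and 575 in KO. With 3 reads set as the floor for the pooled control libraries, its level was at least 230.4-fold higher. Socs1, a feedback inhibitor of cytokine signalling, rose from 8.93 ± 1.75 to 197 ± 4.41, a log2 change of 4.33 ± 0.12 (adjusted p = 6.02e-14). Casp4, an inflammatory caspase, rose from 3.01 ± 0.0255 to 64.7 ± 4.67, 4.03 ± 0.15 (adjusted p = 2.34e-12). Hap1, a huntingtin-binding trafficking protein known from neurons, stood at 0.142 and 0.288 in the control and 19.7 and 25.98 in the KO libraries, 4.28 ± 0.21 (adjusted p = 7.23e-11).

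Collagen genes mostly rose: 13 of 22 tested (59.1%) and 3 fell, with a median log2 change of 0.28 (8 rose and 3 fell with total-count scaling). The rises numbered 8 without KO replicate 2, and 1 gene fell without control replicate 2, KO replicate 1 or KO replicate 2. Col18a1, a basement membrane collagen that yields endostatin, stood at 61.2 and 66.01 in the control and 174 and 185 in the KO libraries, a log2 change of 1.48 ± 0.08 (adjusted p = 1.64e-10). Col15a1, its relative, rose from 28.5 ± 3.96 to 69.2 ± 4.21, 1.26 ± 0.12 (adjusted p = 2.42e-07). Col5a3, a regulator of fibril assembly, rose from 29.4 ± 1.68 to 54.5 ± 2.13, 0.87 ± 0.12 (adjusted p = 2.11e-05). Col6a3, of the pericellular microfibrils, stood at 956 and 975 in the control and 1374 and 1463 in the KO libraries, 0.55 ± 0.07 (adjusted p = 6.24e-06). Col11a1, a minor fibrillar collagen, fell from 161 ± 10.1 to 112 ± 0.658, -0.52 ± 0.07 (adjusted p = 4.27e-05). The largest rise of the list was that of Col18a1. Other basement membrane collagens were split, since Col4a1† and Col4a2† rose and Col4a5† fell. The call of Col1a1, the main fibril collagen of dermis, depended on single libraries. It stood at 7399.9 and 7418 in the control and 8931 and 10019.97 in the KO libraries, 0.35 ± 0.09 (adjusted p = 0.00794), with an adjusted p of 0.0393 to 0.183 when 1 library was left out (above 0.05 without control replicate 1, control replicate 2 or KO replicate 2). It also missed the threshold with quantile normalization and total-count scaling.

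Among other matrix genes the hyaluronan synthase gene Has2 had the largest rise of those named by rule. Has2 stood at 19.5 and 20.2 in the control and 99.8 and 104 in the KO libraries, a log2 change of 2.31 ± 0.11 (adjusted p = 4.39e-11). Eln, the elastin gene, rose from 50.3 ± 3.17 to 116 ± 10.8, 1.19 ± 0.10 (adjusted p = 1.49e-07). Prelp, a leucine-rich proteoglycan that anchors basement membranes, fell from 544 ± 7.22 to 311 ± 7.26, -0.81 ± 0.06 (adjusted p = 2.54e-08). Thbs1, a matricellular glycoprotein that activates TGF-beta, stood at 2032 and 2559 in the control and 1139 and 1192 in the KO libraries, -0.97 ± 0.09 (adjusted p = 3.74e-07). Dcn, the collagen-binding proteoglycan decorin, did not pass the test, at 705 and 626 in the control and 609 and 615 in the KO libraries. Over the list of proteoglycans and matrix organizers 12 of 35 rose and 5 fell, but 7 rose and 11 fell with quantile normalization, and 7 and 10 with total-count scaling. Without KO replicate 2, 7 of its genes rose.

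Matrix proteases moved in both directions. The aggrecanase gene Adamts5 stood at 417 and 466 in the control and 131 and 118 in the KO libraries, a log2 change of -1.82 ± 0.08 (adjusted p = 7.44e-12). Adamts1, a versican-cleaving relative, fell from 410.3 ± 0.877 to 154 ± 7.04, -1.41 ± 0.07 (adjusted p = 3.63e-11). The collagenase gene Mmp13 stood at 50.9 and 48.9 in the control and 138 and 179 in the KO libraries, 1.63 ± 0.10 (adjusted p = 1.86e-09). Plat, the tissue plasminogen activator, rose from 37.7 ± 1.23 to 106 ± 3.24, 1.47 ± 0.08 (adjusted p = 4.98e-10). The membrane-bound protease gene Mmp14 rose from 1333 ± 139 to 1916 ± 47.6, 0.53 ± 0.08 (adjusted p = 5.73e-05), and Mmp3, stromelysin, from 277 ± 13.9 to 403 ± 21.8, 0.54 ± 0.08 (adjusted p = 0.000106). Neither protease family moved as one. Of 6 ADAMTS genes 2 fell and 1 rose, Adamts2† (0.30 ± 0.08), a call lost with quantile normalization, total-count scaling, no trend in the prior variance, and without control replicate 2 or KO replicate 2. Of 8 MMP genes 4 rose and 1 fell, Mmp12† (-0.48 ± 0.11), a call lost without control replicate 2 or KO replicate 2. The whole list held 9 rises and 6 falls among 27 genes (6 and 11 with total-count scaling).

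Genes of cell junctions leaned upwards, with 11 of 23 higher (47.8%) and 3 lower. Cdh11, the main cadherin of fibroblasts, stood at 405 and 477 in the control and 642 and 649 in the KO libraries, a log2 change of 0.55 ± 0.07 (adjusted p = 2.05e-05). Pcdh17, a protocadherin, stood at 1.57 and 1.08 in the control and 18.3 and 20.6 in the KO libraries, 3.14 ± 0.19 (adjusted p = 1.37e-09). Cdh6, a cadherin of neural crest and kidney, rose from 4.80 ± 0.446 to 20.8 ± 0.162, 1.91 ± 0.17 (adjusted p = 1.79e-07). The leukocyte adhesion genes Vcam1 (1.23 ± 0.06) and Icam1 (1.37 ± 0.08), known targets of inflammatory signals, rose as well. Pcdh18, another protocadherin, fell from 40.3 ± 0.0149 to 15.1 ± 3.17, -1.37 ± 0.12 (adjusted p = 1.89e-07). Gja1, the gap junction protein connexin 43, fell from 38.3 ± 1.55 to 23.2 ± 0.667, -0.70 ± 0.10 (adjusted p = 2.87e-05). For every junction gene given here the control and KO libraries did not overlap, which held for 66.9% of all genes tested. All of these genes passed the test and most were named for small p-values or large changes, so this is no separate support.

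Focal adhesion genes and those of small GTPase regulators and myosin motors were divided, 7 higher and 6 lower of 27 in the former (10 and 11 lower with quantile normalization and total-count scaling) and 6 and 7 of 27 in the latter. Itga7, a laminin-binding integrin, rose from 18.9 ± 1.27 to 57.4 ± 4.10, a log2 change of 1.56 ± 0.13 (adjusted p = 5.72e-08). Itga1, a collagen-binding integrin, fell from 181 ± 2.52 to 121 ± 0.185, -0.58 ± 0.07 (adjusted p = 3.12e-06). Zyx, the tension-sensing adhesion protein zyxin, fell from 150.4 ± 4.86 to 101 ± 1.71, -0.56 ± 0.08 (adjusted p = 3.17e-05). Rnd1, a GTPase that antagonises RhoA, stood at 2.99 and 2.45 in the control and 32.1 and 27.9 in the KO libraries, 3.06 ± 0.17 (adjusted p = 5.34e-10). Cdc42ep3, an effector of CDC42 that binds septins and actin, stood at 147 and 159 in the control and 55.8 and 47.4 in the KO libraries, -1.55 ± 0.08 (adjusted p = 2.66e-10). The GTPase-activating protein genes Dlc1 (-1.05 ± 0.09) and Arhgap29 (-0.74 ± 0.06) fell, and the GTPase genes Rhob (0.47 ± 0.08) and Rhoc (0.51 ± 0.09) and the kinase gene Rock1 (0.35 ± 0.06) rose.

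Contractile genes regulated by SRF, the factor that reads actin polymerisation, were rarely higher: 1 of 29 rose (3.45%) and 11 fell (37.9%), with 5 to 7 falls when any 1 library was left out and 0 rises without control replicate 1, KO replicate 1 or KO replicate 2. Lmod1, an actin filament nucleator of muscle, stood at 109.8 and 102 in the control and 60.4 and 56.98 in the KO libraries, a log2 change of -0.84 ± 0.08 (adjusted p = 4.43e-07). Smtn, smoothelin, fell from 57.1 ± 0.480 to 35.1 ± 2.80, -0.69 ± 0.09 (adjusted p = 1.55e-05), and Synpo, an actin-bundling protein, from 194 ± 0.0311 to 142 ± 1.13, -0.45 ± 0.08 (adjusted p = 0.000421). Acta2, the smooth muscle actin that marks myofibroblasts, did not pass the test, at 3316 and 3646 in the control and 3921 and 3666 in the KO libraries (0.12 ± 0.10, and below 0 with quantile normalization and total-count scaling). The falls were thus of moderate size and did not include that marker.

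In the Wnt pathway, 14 of 37 genes fell (37.8%) and 5 rose (13.5%; 3 without control replicate 1), with a median log2 change of -0.15. Dkk2 (chromosome 3, 132085292 to 132180304), a secreted Wnt antagonist, stood at 21.3 and 21.7 in the control and 2.70 and 2.38 in the KO libraries, a log2 change of -2.67 ± 0.16 (adjusted p = 9.69e-10). Rspo2 (chromosome 15, 43020794 to 43170826), a secreted amplifier of Wnt signals, stood at 54.1 and 64.3 in the control and 12.97 and 14.2 in the KO libraries, -2.04 ± 0.10 (adjusted p = 8.46e-11). Fzd4, a Wnt receptor, fell from 29.8 ± 0.255 to 10.98 ± 0.354, -1.36 ± 0.11 (adjusted p = 6.05e-08). Over these families 4 of 6 Frizzled receptor genes fell (3 with any 1 library left out) and 0 rose, 2 of 3 R-spondin genes fell and 0 rose, and of the 2 Dickkopf genes Dkk2 fell and Dkk3† rose (0.36 ± 0.06). Sox4, a transcription factor that stabilises beta-catenin, fell from 738 ± 7.95 to 391 ± 45.6, -0.92 ± 0.08 (adjusted p = 6.69e-08). Ctnnb1, the gene of beta-catenin, rose from 692 ± 10.2 to 933 ± 32.7, 0.43 ± 0.06 (adjusted p = 6.57e-05). The ligand gene Wnt5a stood at 118 and 120.1 in the control and 117 and 113 in the KO libraries and did not pass the test (-0.05 ± 0.08).

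Of 40 TGF-beta and BMP genes 15 fell (37.5%, beside 14.2% of all genes) and 8 rose (20%; 5 without control replicate 1, KO replicate 1 or KO replicate 2). The largest change was a rise. Bambi, a decoy receptor that blocks BMP and TGF-beta signals, stood at 5.55 and 6.12 in the control and 93.5 and 71.03 in the KO libraries, a log2 change of 3.59 ± 0.14 (adjusted p = 5.07e-12). Tgfbi, a matrix protein that TGF-beta induces, stood at 53.2 and 49.7 in the control and 136 and 154 in the KO libraries, 1.48 ± 0.09 (adjusted p = 1.01e-09). Inhba, a subunit of activin, fell from 172 ± 2.91 to 98.6 ± 2.33, -0.79 ± 0.07 (adjusted p = 1.13e-07). Bmp4†, a BMP ligand, fell from 10.9 ± 2.34 to 3.75 ± 0.728, -1.32 ± 0.19 (adjusted p = 4.54e-05). The other 2 tested BMP ligand genes rose, Bmp5† (0.79 ± 0.15) and Bmp2† (0.82 ± 0.24), the latter not without control replicate 2, KO replicate 1 or KO replicate 2. Of 4 genes of the BMP-induced ID inhibitors of helix-loop-helix factors 3 fell, Id4 at 67.6 and 70.2 in the control and 14.9 and 16.6 in the KO libraries (-2.06 ± 0.11), with Id1† at -1.05 ± 0.12 and Id2† at -0.49 ± 0.07. The remaining one, Id3†, did not pass the test (-0.16 ± 0.07), but fell with the other scalings and without KO replicate 2. Smad6†, a BMP-induced feedback inhibitor, fell from 28.8 ± 0.192 to 11.9 ± 1.71, -1.21 ± 0.13 (adjusted p = 1.81e-06). BMP ligand genes thus moved both ways, and most of these genes were chosen after their values were seen.

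Hedgehog and Notch genes numbered 16 tested, of which 6 rose and 3 fell (5 to 6 fell with the other scalings). Gas1, a Hedgehog coreceptor, stood at 247 and 273 in the control and 69.7 and 72.4 in the KO libraries, a log2 change of -1.86 ± 0.07 (adjusted p = 2.11e-12). Boc, another coreceptor, rose from 45.1 ± 4.74 to 78.1 ± 0.788, 0.78 ± 0.09 (adjusted p = 2.45e-06). The Notch ligand gene Dll1 stood at 0.855 and 1.44 in the control and 12.6 and 16.2 in the KO libraries, 2.85 ± 0.22 (adjusted p = 2.46e-08). Notch1, the receptor, rose from 23.5 ± 1.06 to 57.2 ± 3.12, 1.25 ± 0.11 (adjusted p = 2.13e-07), and Hey1†, a target of Notch, from 3.18 ± 0.733 to 11.5 ± 0.972, 1.59 ± 0.18 (adjusted p = 3.88e-06). Another ligand gene, Jag1†, stood at 56.5 and 61.3 in the control and 34.4 and 34.7 in the KO libraries, -0.75 ± 0.10 (adjusted p = 1.39e-05), and another target, Hes1†, fell from 154 ± 8.70 to 119 ± 11.6, -0.37 ± 0.08 (adjusted p = 0.00162), a call lost without KO replicate 1. Ligands and targets of Notch thus moved both ways.

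Growth factor and receptor tyrosine kinase genes were more often lower: 18 of 48 members fell (37.5%) and 11 rose (22.9%). Fgf7, a factor by which fibroblasts stimulate keratinocytes, stood at 141 and 154 in the control and 57.6 and 51.95 in the KO libraries, a log2 change of -1.42 ± 0.08 (adjusted p = 2.68e-10). Fgf18, another fibroblast growth factor, fell from 7.81 ± 0.978 to 1.55 ± 0.634, -1.80 ± 0.23 (adjusted p = 1.11e-05). Vegfd, a lymphatic growth factor, fell from 244 ± 13.8 to 126 ± 1.20, -0.95 ± 0.07 (adjusted p = 1.15e-08). Pdgfra, the receptor that marks fibroblasts, stood at 157 and 155 in the control and 65.8 and 70.3 in the KO libraries, -1.19 ± 0.07 (adjusted p = 7.86e-10). Igfbp2, a binding protein of insulin-like growth factors, fell from 521 ± 32.4 to 201 ± 2.29, -1.37 ± 0.08 (adjusted p = 1.40e-09). These 3 ligands, the receptor and the binding protein were lower in every KO library. The feedback genes of the ERK pathway were split, since the phosphatase genes Dusp6† (1.28 ± 0.10) and Dusp5† (1.27 ± 0.16) and Spry4† (1.46 ± 0.19) rose and Spry1† (-1.58 ± 0.18) fell. Erbb3, the neuregulin receptor of Schwann cells, rose from 4.62 ± 0.494 to 16.8 ± 2.66, 1.65 ± 0.18 (adjusted p = 1.48e-06). Other markers of that lineage rose beside it, Ngfr at 51.6 and 50.01 in the control and 188 and 210.02 in the KO libraries (1.95 ± 0.09) and Sox10 at 1.74 ± 0.16. Of the 9 tested markers of melanocytes and Schwann cells 6 rose and 2 fell (1 or 0 fell with any 1 library left out), and the part of such cells in the rise of Erbb3 was not tested.

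Guidance molecules changed often, 17 of 47 higher (36.2%) and 12 lower (25.5%). Of 14 ephrins and Eph receptors, which signal between touching cells, 7 fell and 3 rose, with the same counts under the other scalings and with any 1 library left out. Ephb3 stood at 107 and 95.99 in the control and 33.3 and 34.2 in the KO libraries, a log2 change of -1.56 ± 0.10 (adjusted p = 2.59e-09). The ligand genes Efnb2† (-1.01 ± 0.13), Efna4† (-0.90 ± 0.13), Efnb1† (-0.87 ± 0.09) and Efna1† (-0.85 ± 0.16) and the receptor genes Epha2† (-1.44 ± 0.22) and Epha4† (-0.76 ± 0.07) fell as well. Epha5 stood at 0.783 and 0.577 in the control and 8.88 and 9.20 in the KO libraries, 2.58 ± 0.20 (adjusted p = 2.75e-08). Epha7 rose from 5.09 ± 0.955 to 22.01 ± 0.770, 1.93 ± 0.16 (adjusted p = 4.77e-08), and the ligand gene Efna5† from 30.4 ± 0.554 to 46.1 ± 3.95, 0.58 ± 0.10 (adjusted p = 0.000211). Sema4c, a membrane semaphorin, rose from 29.6 ± 1.11 to 81.8 ± 1.22, 1.43 ± 0.09 (adjusted p = 1.45e-09).

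**Figure D4:**
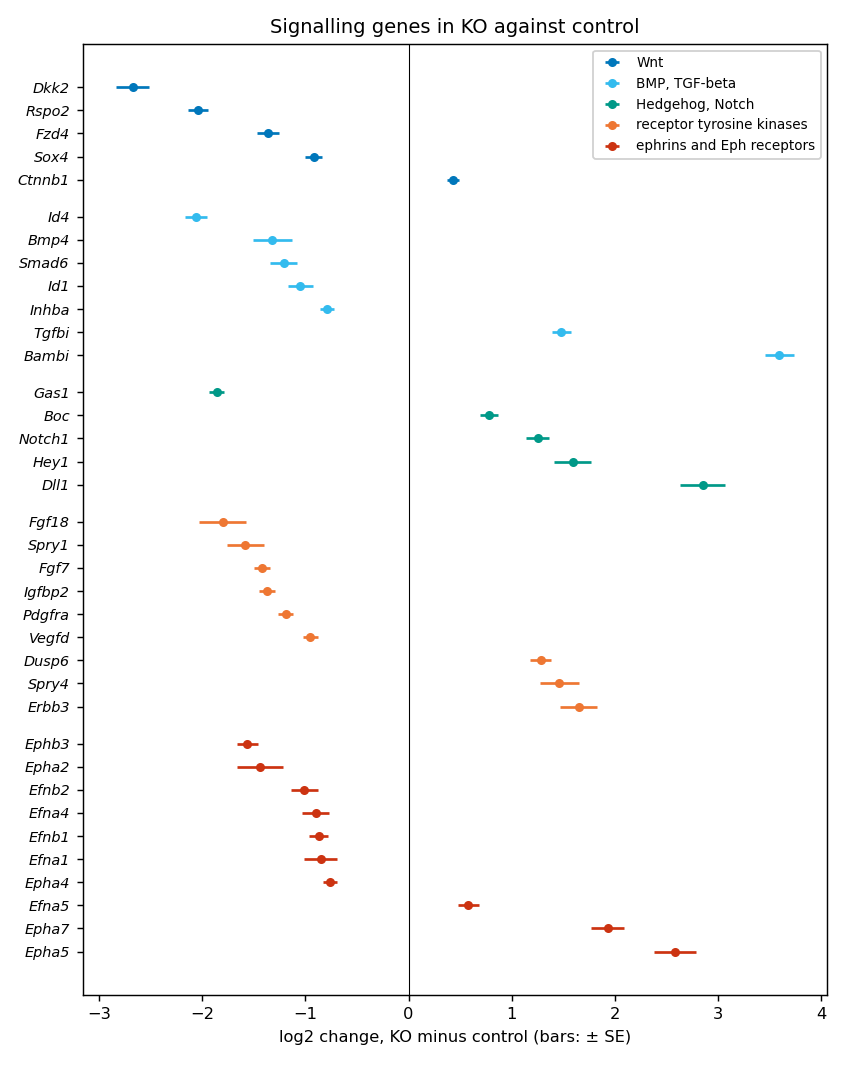
Log2 change (KO minus control, points, with bars of ± SE) of 36 signalling genes grouped by pathway. Values range from -2.67 (Dkk2) to 3.59 (Bambi), and within each of the 5 pathways some genes rose and others fell.

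Transcription factors of the mesenchyme moved both ways, with 17 of 46 higher (37%) and 13 lower (28.3%; 8 without KO replicate 1 and 20 with total-count scaling). Osr1 (chromosome 12, 9570116 to 9581500), a factor of connective tissue progenitors, stood at 30.7 and 36.5 in the control and 7.40 and 6.05 in the KO libraries, a log2 change of -2.16 ± 0.15 (adjusted p = 5.35e-09). Zfp703 (chromosome 8, 26977325 to 26981461), a zinc finger repressor, stood at 178 and 189.5 in the control and 46.1 and 40.2 in the KO libraries, -2.07 ± 0.08 (adjusted p = 2.22e-12). Snai1, which drives epithelial-mesenchymal transition, stood at 80.8 and 90.9 in the control and 30.6 and 25.7 in the KO libraries, -1.58 ± 0.10 (adjusted p = 1.92e-09). Its relative Snai2† stood at 78.8 and 89.8 in the control and 166 and 173 in the KO libraries, 1.00 ± 0.08 (adjusted p = 6.69e-08), in the opposite direction. In a separate list of positional and limb patterning factors 5 of 16 rose and 5 fell (31.2% each), or 1 and 6 with total-count scaling. The rises numbered 2 with median scaling or DESeq2 and 3 with quantile normalization or edgeR, so their count was not stable. Of the 36 factors listed only 16 were in the table, and most of the listed HOX genes were absent. Of its T-box genes Tbx2 rose (2.40 ± 0.20, adjusted p = 7.17e-08), as did Tbx15, and Tbx18 fell (-0.90 ± 0.15, adjusted p = 0.000139). Meis1 (-0.49 ± 0.09) and Meis2 (-0.46 ± 0.07) of that list, cofactors of HOX proteins, fell. In the mesenchymal list Nr4a2, an orphan nuclear receptor, rose from 19.7 ± 0.999 to 67.6 ± 5.28, 1.73 ± 0.10 (adjusted p = 8.90e-10). Tfap2a, a factor of neural crest, rose from 3.62 ± 0.385 to 17.8 ± 1.55, 2.03 ± 0.17 (adjusted p = 9.36e-08), beside the rise of the Schwann cell markers given above.

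Immediate early and KLF genes included 10 rises and 6 falls among 28 (11 falls with total-count scaling). Jun, an AP-1 subunit, stood at 154 and 159 in the control and 351 and 353 in the KO libraries, a log2 change of 1.17 ± 0.06 (adjusted p = 2.80e-10). Klf4, a factor of quiescence and barrier genes, stood at 124 and 118 in the control and 324 and 333 in the KO libraries, 1.43 ± 0.07 (adjusted p = 3.77e-11). Mafk, a small MAF factor, rose from 16.4 ± 1.51 to 67.2 ± 1.42, 1.97 ± 0.11 (adjusted p = 3.15e-10). Fosl2, a FOS-related AP-1 subunit, stood at 342 and 357 in the control and 124 and 133 in the KO libraries, -1.44 ± 0.07 (adjusted p = 1.02e-10). Subunits of AP-1, a factor known to act with TEAD, thus changed in opposite directions. The AP-1 letters TGANTCA were found in 4.27% of all promoters, 5.63% of those of genes that rose and 4.39% of those of genes that fell.

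Clock genes fell more often than they rose, 7 against 3 of 17, with 4 falls without KO replicate 2 and 1 rise without control replicate 1, KO replicate 1 or KO replicate 2. Nr1d1, the repressor REV-ERB alpha, stood at 16.2 and 15.3 in the control and 7.31 and 7.32 in the KO libraries, a log2 change of -1.01 ± 0.14 (adjusted p = 3.04e-05). Cry2, a repressor of the clock, fell from 16.6 ± 0.0629 to 7.72 ± 1.28, -1.02 ± 0.14 (adjusted p = 3.44e-05). Dbp, an output factor of the clock, fell from 56.3 ± 0.791 to 39.6 ± 1.65, -0.50 ± 0.10 (adjusted p = 0.00102). Nr1d2, the close relative of Nr1d1, rose from 63.3 ± 7.82 to 108 ± 1.12, 0.76 ± 0.09 (adjusted p = 5.10e-06). Each library is 1 time point, so phase was not measured.

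Sterol synthesis was the metabolic list that leaned most to higher levels: 13 of 25 genes rose (52%) and 0 fell, with a median log2 change of 0.33. The count was 8 with quantile normalization, 6 with total-count scaling, 6 without control replicate 1 or KO replicate 1, 8 without KO replicate 2 and 6 with no trend in the prior variance, and 0 fell in each of these. Nsdhl, a sterol demethylation enzyme, stood at 28.6 and 38.6 in the control and 64.2 and 55.2 in the KO libraries, a log2 change of 0.82 ± 0.14 (adjusted p = 0.00026). Lss, lanosterol synthase, rose from 29.4 ± 3.03 to 45.3 ± 0.204, 0.61 ± 0.11 (adjusted p = 0.000437), and Cyp51, the next enzyme of the pathway, from 199.7 ± 36.5 to 282 ± 10.6, 0.51 ± 0.10 (adjusted p = 0.000727). For Nsdhl control replicate 2 lay nearer to the KO libraries than control replicate 1 did.

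In the list of fatty acid synthesis and lipid droplets, 14 of 38 rose and 7 fell (11 and 12 with total-count scaling, 9 rises without control replicate 1 and 3 falls without KO replicate 1). Scd1, which makes monounsaturated fatty acids, stood at 177 and 189 in the control and 292 and 298 in the KO libraries, a log2 change of 0.69 ± 0.06 (adjusted p = 2.81e-07). G0s2, described above, had the largest fall of the list. Mgll, monoacylglycerol lipase, rose from 77.7 ± 5.07 to 132 ± 3.90, 0.76 ± 0.08 (adjusted p = 6.02e-07). Acsl4, an enzyme that activates polyunsaturated fatty acids, rose from 81.2 ± 2.35 to 134 ± 0.346, 0.71 ± 0.08 (adjusted p = 2.99e-06). The fat cell regulators Pparg (-0.68 ± 0.10, adjusted p = 3.49e-05) and Cebpa (-0.76 ± 0.09, adjusted p = 5.47e-06) fell. Adipoq, a defining gene of mature fat cells, stood at 50.6 and 44.6 in the control and 40.7 and 44.4 in the KO libraries and did not pass the test. Of the 10 adipocyte markers 0 rose and 3 fell (6 with total-count scaling), and their sum was 1442 and 1692 in control and 1281 and 1454 in KO, ranges that overlapped.

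Glucose metabolism genes were more often lower, 13 of 34 in the glycolysis and hypoxia list (38.2%) against 5 that rose (20 fell with total-count scaling). Slc2a1, the main glucose transporter, stood at 91.5 and 94.8 in the control and 62.6 and 56.2 in the KO libraries, a log2 change of -0.64 ± 0.08 (adjusted p = 8.57e-06). Pfkfb3, which makes the activator of phosphofructokinase, stood at 75.8 and 80.1 in the control and 229 and 226 in the KO libraries, 1.54 ± 0.09 (adjusted p = 4.73e-10). Hk2, an inducible hexokinase, rose from 69.8 ± 4.69 to 118 ± 8.68, 0.75 ± 0.08 (adjusted p = 1.88e-06). Gys1, muscle-type glycogen synthase, fell from 64.7 ± 0.366 to 41.3 ± 1.44, -0.64 ± 0.09 (adjusted p = 2.13e-05), in the same direction as Ppp1r3c. Over the list of glycogen and pentose phosphate metabolism 3 of 20 genes rose and 3 fell (15% each), near the shares of all genes. The list thus had no shared direction with the deposited scaling. With median scaling 3 rose and 5 fell, with quantile normalization 2 and 7, and with total-count scaling 0 and 7.

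Amino acid and redox genes did not share a direction. Of 28 amino acid genes 7 rose (25%) and 4 fell (14.3%). Of 36 redox genes 7 rose and 7 fell (19.4% each), beside 18.2% and 14.2% of all genes. Log2 changes of the redox genes spanned -1.15 to 0.95, and Osgin1 had their largest fall past the threshold. Without KO replicate 1 the amino acid falls numbered 2, and the redox rises numbered 2 without control replicate 2, KO replicate 1 or KO replicate 2. The redox falls ranged from 3 without control replicate 1 or KO replicate 2 and 4 without control replicate 2 to 17 with total-count scaling. Slc7a11 (1.22 ± 0.17, adjusted p = 3.39e-05) and Slc3a2 (0.59 ± 0.06, adjusted p = 9.52e-07), the 2 chains of the cystine transporter, both rose. Sat1, which acetylates polyamines, rose from 25.6 ± 0.115 to 63.1 ± 5.83, 1.26 ± 0.10 (adjusted p = 3.38e-08). Glul, glutamine synthetase, fell from 93.2 ± 11.4 to 56.9 ± 5.46, -0.70 ± 0.11 (adjusted p = 0.000147). Txn1, thioredoxin, rose from 422 ± 4.58 to 584 ± 1.33, 0.47 ± 0.06 (adjusted p = 1.48e-05). Slc30a1, the zinc exporter, rose from 29.8 ± 2.23 to 58.4 ± 3.47, 0.95 ± 0.11 (adjusted p = 2.51e-06).

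The folding machinery of the endoplasmic reticulum (ER) had the largest share of falls among the 39 lists: 22 of 41 genes (53.7%, beside 14.2% of all genes) fell and 3 rose. The falls numbered 14 with no trend in the prior variance, 15 to 21 with 1 library left out and 23, 29 and 30 with median, quantile and total-count scaling, and 1 gene rose without control replicate 1 or KO replicate 2. Hspa5, the chaperone BiP, stood at 2339.6 and 2539.9 in the control and 1448 and 1397 in the KO libraries, a log2 change of -0.78 ± 0.07 (adjusted p = 2.07e-07). Calr, calreticulin, stood at 1581 and 1763 in the control and 1018 and 931 in the KO libraries, -0.78 ± 0.09 (adjusted p = 3.24e-06). Hsp90b1, the ER form of HSP90, stood at 1761 and 2093 in the control and 1073 and 1107 in the KO libraries, -0.82 ± 0.08 (adjusted p = 5.19e-07). The lower control library exceeded the higher KO library for all 3 chaperones. Pdia4, a disulfide isomerase, fell from 236 ± 47.9 to 102 ± 15.3, -1.20 ± 0.11 (adjusted p = 3.81e-07). Sdf2l1, a cofactor of BiP, fell from 32.7 ± 3.47 to 13.3 ± 2.16, -1.24 ± 0.14 (adjusted p = 2.02e-06). Creld2†, a secreted folding factor, fell from 43.5 ± 9.48 to 20.2 ± 1.05, -1.05 ± 0.14 (adjusted p = 2.78e-05). Xbp1†, a transcription factor that induces such genes, fell from 138 ± 10.3 to 84.5 ± 3.94, -0.70 ± 0.08 (adjusted p = 1.55e-06). Syvn1, a ubiquitin ligase that removes misfolded ER proteins, rose from 63.6 ± 0.0714 to 91.1 ± 6.86, 0.51 ± 0.08 (adjusted p = 0.000108).

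The promoters of 4 of these genes are shown because they carry the ER stress response element, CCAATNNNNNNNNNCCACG or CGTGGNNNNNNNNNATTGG on the other strand, in capitals. This motif was searched after the falls had been seen. It was found in 14 of 10267 promoters (0.136%) and in 8 of the 31 ER list promoters available (25.8%). Of the 8 genes 7 fell, Creld2, Hsp90b1, Calr, Hspa5, Pdia6†, Dnajc3† and Canx†, and Syvn1 rose. Of the 6 matched genes outside the ER list 0 fell and 3 rose, Acacb† (1.11 ± 0.21), Gm6566† (0.93 ± 0.23) and Pan2† (0.62 ± 0.14, a call lost without KO replicate 1), so the matched genes did not all move one way. The calls of Dnajc3 (-0.30 ± 0.07, adjusted p up to 0.066 without KO replicate 2) and Canx (-0.21 ± 0.07, up to 0.221 with 1 library left out) were lost without single libraries and with no trend in the prior variance. The CCAAT letters alone, which lie inside the element, were in 36.5% of all promoters and 71.0% of those of the list. The promoters (RefSeq, GRCm38.p6) are at chr2:34771840-34772089, plus strand (Hspa5), chr8:84846932-84847181, minus strand (Calr), chr10:86705445-86705694, minus strand (Hsp90b1) and chr15:88819396-88819645, plus strand (Creld2).
Hspa5: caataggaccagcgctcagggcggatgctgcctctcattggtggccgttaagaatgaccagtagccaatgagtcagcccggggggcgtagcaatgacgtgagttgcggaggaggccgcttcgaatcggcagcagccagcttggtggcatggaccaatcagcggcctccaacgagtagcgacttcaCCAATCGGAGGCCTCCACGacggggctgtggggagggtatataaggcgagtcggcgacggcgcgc
Calr: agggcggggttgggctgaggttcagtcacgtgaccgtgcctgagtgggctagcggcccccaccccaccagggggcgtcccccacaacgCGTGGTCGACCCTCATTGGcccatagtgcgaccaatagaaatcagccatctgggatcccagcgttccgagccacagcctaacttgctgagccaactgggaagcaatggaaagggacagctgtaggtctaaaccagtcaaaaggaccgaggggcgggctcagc
Hsp90b1: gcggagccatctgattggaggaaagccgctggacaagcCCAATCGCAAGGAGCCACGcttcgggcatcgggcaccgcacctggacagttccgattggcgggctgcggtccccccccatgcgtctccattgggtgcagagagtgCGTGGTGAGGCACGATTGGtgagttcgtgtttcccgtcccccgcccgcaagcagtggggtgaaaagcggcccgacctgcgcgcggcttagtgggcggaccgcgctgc
Creld2: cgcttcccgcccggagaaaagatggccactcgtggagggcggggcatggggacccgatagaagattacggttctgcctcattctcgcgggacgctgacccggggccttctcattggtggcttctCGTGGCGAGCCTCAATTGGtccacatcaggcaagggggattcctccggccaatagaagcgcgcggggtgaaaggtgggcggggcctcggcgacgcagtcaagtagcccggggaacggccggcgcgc

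Lysosomal genes rose in 16 of 46 cases (34.8%) and fell in 2, but 4 rose and 3 fell with quantile normalization, and 4 and 5 with total-count scaling. The rises numbered 9 without control replicate 2 and 7 without KO replicate 2, and 0 fell without control replicate 2 or KO replicate 1. Npc2, a lysosomal cholesterol carrier, stood at 999 and 959 in the control and 1475 and 1442 in the KO libraries, a log2 change of 0.57 ± 0.07 (adjusted p = 5.27e-06). Npc1, its membrane partner, rose from 71.9 ± 7.34 to 96.4 ± 2.33, 0.42 ± 0.08 (adjusted p = 0.000721). Oxidative phosphorylation subunits moved little: 9 of 75 rose and 0 fell, but 0 rose and 5 fell with total-count scaling, and 1 rose without control replicate 2 or KO replicate 2 and 2 without KO replicate 1.

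**Figure D5:**
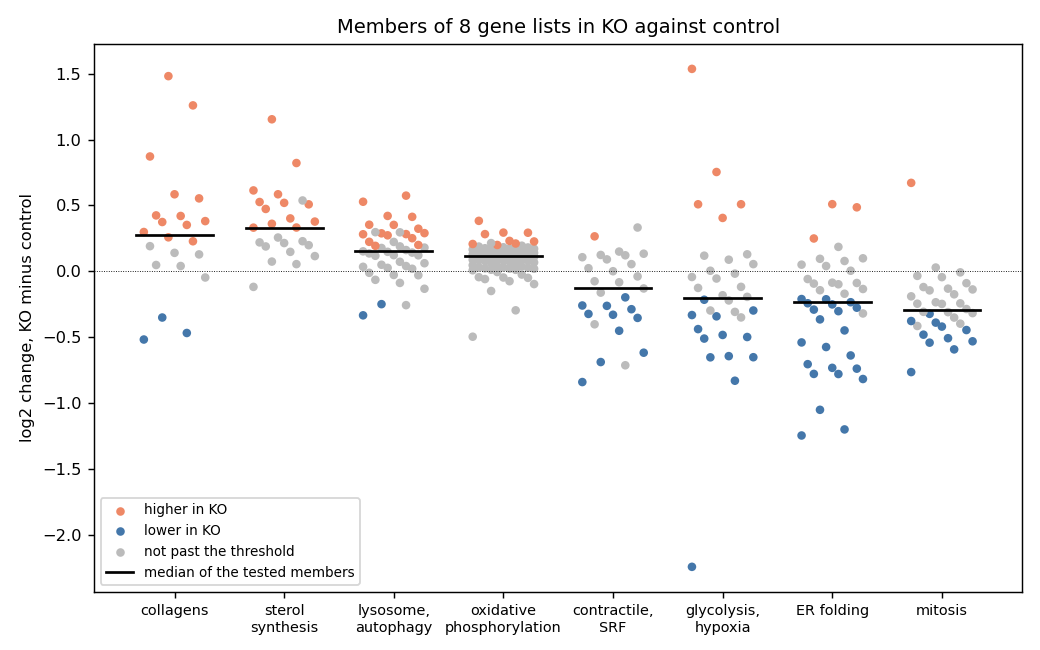
Log2 change (KO minus control) of each tested member of 8 gene lists, coloured by whether it rose, fell or did not pass the threshold, with bars at the list medians. Collagen and sterol medians lie above 0 (0.28 and 0.33), and those of ER folding, glycolysis and mitosis genes below (-0.23, -0.20 and -0.30).

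Ribosomal protein genes were near 0 as a group, with 11 of 75 higher and 1 lower (0 and 6 with total-count scaling, 0 rises without control replicate 2 or KO replicate 2, and 2 without KO replicate 1). The single fall was large. Rps2, a protein of the small subunit, stood at 419 and 427 in the control and 96.9 and 100.3 in the KO libraries, a log2 change of -2.09 ± 0.07 (adjusted p = 2.82e-13). Rps2 has many near-identical processed copies in the genome, so its reads may be split by the counting and its level is uncertain. Whether this bears on its fall was not tested. Of 20 tRNA synthetase genes 4 rose and 0 fell (4 fell with quantile normalization and with total-count scaling, and 2 rose without control replicate 1 or KO replicate 1). Wars, the tryptophanyl enzyme that interferon is known to induce, rose from 31.8 ± 0.876 to 49.6 ± 2.42, 0.62 ± 0.11 (adjusted p = 0.000348).

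Cell cycle genes did not share a direction. Ccne1, the cyclin that starts S phase, stood at 17.02 and 21.2 in the control and 60.9 and 55.2 in the KO libraries, a log2 change of 1.56 ± 0.12 (adjusted p = 2.92e-08). Mcm6, a subunit of the replicative helicase, rose from 36.8 ± 1.53 to 75.9 ± 6.97, 1.02 ± 0.09 (adjusted p = 1.80e-07). Rrm2, the inducible subunit of ribonucleotide reductase, fell from 34.3 ± 0.471 to 19.5 ± 0.791, -0.79 ± 0.13 (adjusted p = 0.00025). Dut, which removes dUTP, stood at 54.1 and 54.1 in the control and 32.8 and 33.5 in the KO libraries, -0.69 ± 0.09 (adjusted p = 1.12e-05). Rrm2 and Dut come from the list of serine, one-carbon and nucleotide synthesis, in which 3 of 35 rose and 4 fell (16 fell with total-count scaling). Only 1 gene of that list rose with median scaling, total-count scaling or DESeq2. Of 45 replication genes 6 rose (13.3%) and 5 fell (11.1%), near the shares of all genes (17 fell with total-count scaling). Without KO replicate 2 the replication counts were 3 and 1, and 3 fell without control replicate 2. Of 34 mitosis genes 11 fell and 1 rose, but 1 fell without control replicate 2 or KO replicate 2, 7 without control replicate 1 and 24 with total-count scaling. Kif20a, a kinesin of cytokinesis, fell from 30.1 ± 0.507 to 20.4 ± 1.05, -0.54 ± 0.12 (adjusted p = 0.00189). Cenpe, a kinetochore kinesin, was the member that rose, from 77.1 ± 3.03 to 124 ± 12.7, 0.67 ± 0.10 (adjusted p = 7.17e-05). The mitotic kinase genes Cdk1 (-0.17 ± 0.08, adjusted p = 0.103) and Plk1 (-0.14 ± 0.12, adjusted p = 0.414) did not pass the test.

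Apoptosis regulators rose in 12 of 27 cases (44.4%) and fell in 2, with 10 to 11 rises when 1 library was left out and 0 falls without control replicate 2 or KO replicate 1. Bid, which links death receptors to mitochondria, stood at 26.4 and 27.9 in the control and 89.6 and 89.3 in the KO libraries, a log2 change of 1.68 ± 0.12 (adjusted p = 1.02e-08). Pmaip1, the death-promoting protein NOXA, is not of this list but of the p53 targets below, where it had the largest rise. It stood at 5.27 and 5.33 in the control and 14.98 and 15.5 in the KO libraries, 1.37 ± 0.16 (adjusted p = 3.95e-06). Birc3, an inhibitor of apoptosis, stood at 12.96 and 10.1 in the control and 43.6 and 47.6 in the KO libraries, 1.90 ± 0.13 (adjusted p = 7.28e-09), and Cflar, which blocks caspase 8, rose from 76.9 ± 0.871 to 143 ± 2.64, 0.88 ± 0.07 (adjusted p = 4.64e-08). Among these 4 genes, those that promote and those that block cell death were both higher. Targets of p53 were divided, 10 higher and 10 lower of 34 (5 and 17 with total-count scaling, and 4 to 6 lower with any 1 library left out). Bbc3, the death-promoting protein PUMA, rose from 32.3 ± 3.01 to 62.2 ± 6.88, 0.92 ± 0.10 (adjusted p = 2.86e-06). Gadd45a, a stress gene induced by p53 and also a YAP/TAZ target of the list, fell from 78.6 ± 5.93 to 39.95 ± 0.472, -0.96 ± 0.08 (adjusted p = 6.82e-08).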

How the data were processed

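QuantSeq 3′ libraries were sequenced, per the labels' protocols. The submitters' processing notes name the mm10 build and the tools featureCounts, edgeR and STAR 2.5.3a. The annotation, strand setting and filter on low genes are not given in the sources used here. The deposited values are a signal per gene: scaled CPM that the authors computed, whole multiples of 1 step per column (100% of values within 0.0006), so whole reads were recovered by division. The tests had been planned for plain CPM and were kept.

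Values were analysed as log2(scaled CPM + 1) for the 13648 genes that reached 1 scaled CPM in 2 or more libraries (58 genes were not tested). A linear model with 1 mean per group over all 6 libraries was fitted (limma 3.58.1, R 4.3.3, trend in the prior variance, 3 residual degrees of freedom, 15.7 after moderation), and the contrast was KO minus control, with Benjamini-Hochberg adjustment and a threshold of 0.05. The fit was tested on simulated data. Intervals and the floor of 3 reads cover counting error only.

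The comparison and the 39 pathway and 9 marker lists were chosen with earlier results of these data known. Lists are described by counts and medians, with no set test. The rule named the 12 largest rises and falls without overlap of the groups, outside the interferon list and related symbols, with at least 5 scaled CPM in the higher group. It also named, for each list, the first 3 members, the 4 with the smallest p, the member with the highest mean and the members with the largest rise and fall past the threshold. Of the genes it allowed, the text mostly gives those whose call held under the alternatives, so their stability is no result, and a few genes it named are not reported here. Gene positions are from GENCODE M21 (GRCm38, the same build as mm10), and promoters from RefSeq, which matched 10267 tested genes.

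The fit was repeated with a pseudocount of 0.25 or 4, without the filter, with a mean of at least 10 scaled CPM, median scaling, quantile normalization, total-count scaling, only the 4 compared libraries and no trend. Further ones were a replicate term, each library left out, and edgeR 4.0.16 (quasi-likelihood) and DESeq2 1.42.0 on the recovered reads.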

Additional observations from a re-analysis of the deposited data

How the results depend on the processing

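With the deposited scaling 2483 genes rose and 1938 fell. The count of genes that fell was 2549 with median scaling, 2987 with quantile normalization, 4054 with total-count scaling, 1217 with DESeq2, 1266 among genes with a mean of at least 10 scaled CPM and 1165 to 1252 with 1 library left out. The count of genes that rose was 2131 with median scaling, 1914 with quantile normalization, 1727 with total-count scaling, 2065 with DESeq2 and 1782 to 2032 with 1 library left out. edgeR called 2423 and 1851 genes, and the fit without a trend 2014 and 1607. The cause of these shifts was not tested, except that a left-out library leaves fewer samples and a higher filter fewer genes (9030). Acta2, which did not pass the test, changed sign with quantile normalization (-0.29) and total-count scaling (-0.039). A replicate block called 2430 genes higher and 1887 lower. Same-numbered control and KO libraries deviated from their group means with a correlation of -0.145, so the numbers are not shown to pair the samples. A crossed pairing, chosen after seeing the data, called 2891 and 2431. Depth limits genes near 1 scaled CPM, where 1 read is worth 0.0625 to 0.0871.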

Other observations

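Of 8 endothelial markers, all at low levels, 4 fell and 1 rose (3 fell without control replicate 1 or KO replicate 2). Pecam1, an adhesion molecule of endothelial and blood cells, stood at 2.85 and 2.74 in the control and 0.348 and 0.255 in the KO libraries, a log2 change of -1.54 ± 0.20 (adjusted p = 1.40e-05). Cdh5, the cadherin of endothelial junctions, stood at 1.78 and 2.38 in the control and 0.348 and 0.426 in the KO libraries, -1.14 ± 0.22 (adjusted p = 0.00062). Emcn, a sialomucin of venous and capillary endothelium, stood at 2.63 and 2.31 in the control and 0.348 and 0.255 in the KO libraries, -1.41 ± 0.25 (adjusted p = 0.000278). Kdr, a receptor of vascular endothelial growth factor, rose from 3.58 ± 0.881 to 7.01 ± 0.317, 0.82 ± 0.19 (adjusted p = 0.00363), a call lost without control replicate 2. The KO levels of the 3 genes that fell rest on 7, 9 and 7 reads over both KO libraries. Among macrophage genes Ptprc, the leukocyte phosphatase CD45, rose from 21.2 ± 1.90 to 31.7 ± 2.69, 0.56 ± 0.11 (adjusted p = 0.000652), and Csf1r, the receptor that macrophages need to survive, fell from 34.8 ± 1.53 to 25.1 ± 0.583, -0.46 ± 0.09 (adjusted p = 0.000783). Over the macrophage list 4 of 15 tested markers rose and 2 fell (2 rose without control replicate 2, KO replicate 1 or KO replicate 2, and 1 fell without control replicate 1), and the defining genes named here moved in opposite directions.

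Genes of G-protein-coupled receptors and second messengers were divided, 11 higher and 12 lower of 46 (7 higher without control replicate 2 or KO replicate 2). Ptger4, a receptor of prostaglandin E, stood at 32.5 and 28.8 in the control and 10.3 and 9.62 in the KO libraries, a log2 change of -1.53 ± 0.11 (adjusted p = 1.52e-08). Rgs16, which ends G-protein signals, stood at 36.7 and 33.7 in the control and 83.9 and 86.3 in the KO libraries, 1.25 ± 0.09 (adjusted p = 9.64e-09). Of 27 cytosolic heat shock genes 5 rose (18.5%) and 3 fell (11.1%), near the shares of all genes (4 and 9 with total-count scaling). Dnajb1, a cochaperone of HSP70, rose from 47.8 ± 0.656 to 83.4 ± 2.78, 0.79 ± 0.08 (adjusted p = 8.05e-07). Hsph1, which exchanges the nucleotide of HSP70, fell from 97.5 ± 7.61 to 58.2 ± 0.666, -0.73 ± 0.08 (adjusted p = 1.70e-06). Of 36 genes of ribosome biogenesis 1 rose and 7 fell (2 to 3 falls with any 1 library left out and 21 with total-count scaling). Wdr43, a factor of early ribosome assembly, was the one that rose, from 148 ± 4.19 to 233 ± 2.13, 0.65 ± 0.07 (adjusted p = 8.41e-07).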
